A study of Mus musculus with 6 samples.

Results

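The heat-shock chaperones described here are 10 genes: Hsp90aa1, Hsp90ab1, Hspa8, Hspa1a, Hspa1b, Hsph1, Dnaja1, Dnajb1, Hspd1 and Hspe1. They were chosen by symbol as textbook members of the chaperone system, and all 10 were found among the 22623 genes of the count table of every library. The data are single-nucleus RNA sequencing counts from frozen subcutaneous TC1 tumors of mice, with 3 libraries from MCT2 CO hosts and 3 from MCT2 KO hosts. TC1, an implanted mouse line that the study calls epithelial lung tumor cells, was itself not deleted. MCT2, encoded by Slc16a7, is a monocarboxylate transporter. All hosts were male C57BL/6 mice with MCT2 loxP/loxP alleles and the mCre-Tg transgene. KO hosts received tamoxifen once a day for 5 days from 8 weeks of age and CO hosts received vehicle, so that tamoxifen and deletion cannot be told apart. Tumor cells were injected 2 days after the last dose and tumors were collected at 24 days. The tissue label reads Lung. Sftpc, Sftpa1, Scgb1a1 and Nkx2-1, markers of lung epithelium, had 0 UMIs (unique molecular identifiers, each counting 1 captured transcript) in all nuclei. The list for this check also held Foxj1, Ager, Epcam and Krt8, whose counts are not given here.

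Chaperones bind unfolded or partly folded proteins and let them fold. HSP90 proteins mature client proteins such as kinases and receptors, HSP70 proteins bind short exposed stretches, HSP40 proteins (the Dnaj genes) deliver substrates to HSP70, and the HSP110 protein of Hsph1 renews the nucleotide on HSP70. HSP60 and its lid, the products of Hspd1 and Hspe1, fold imported proteins inside mitochondria. Some of these genes are abundant in unstressed cells, whereas Hspa1a, Hspa1b and Dnajb1 are known for a strong rise when the transcription factor HSF1 is activated by heat or misfolded protein. Nuclei were measured here, so that messengers lying in the cytoplasm reach the library only with cytoplasm that stays on the nucleus or as free RNA.

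In GRCm38, the genome build of the files, the HSP90 genes Hsp90aa1 and Hsp90ab1 lie at chr12:110690605-110702728 and chr17:45567775-45573271, both on the minus strand. Hspa8 lies at chr9:40800984-40810087 on the plus strand, and the stress-induced HSP70 genes Hspa1a and Hspa1b lie next to each other on the minus strand at chr17:34969190-34972156 and chr17:34956436-34959238, each annotated as 1 exon without an intron. Hsph1 is at chr5:149614287-149636376 on the minus strand, Dnaja1 at chr4:40722150-40737149 and Dnajb1 at chr8:83608193-83612653 on the plus strand. Hspd1 at chr1:55077835-55088243 on the minus strand and Hspe1 at chr1:55088132-55091307 on the plus strand start head to head. Some of the counts cannot be assigned with certainty: of the 50-base windows in the last 500 bases of the transcript, 81.8% for Hspa8, 53.2% for Hspe1 and 7.76% for Hsp90ab1 were shared exactly with annotated copies elsewhere, and 0% for the other members.

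HSF1 binds repeats of the letters GAA in alternating orientation. Promoter windows of 300 bases (250 before to 50 after a gene start, RefSeq, GRCm38.p6) were present for 7 of the 10 members, all but Hsp90aa1, Hsp90ab1 and Hspa8, and were searched on both strands for a pair of facing repeats, GAANNTTC or TTCNNGAA, which overlap within a run of 3. Such a match was found in 15.1% of all 32851 windows, and a run of 3 repeats in 0.603%. Windows of Hspa1a, Hspa1b, Hsph1, Dnaja1, Hspd1 and Hspe1 held a match, and the 2 windows of Dnajb1 held none. The stretches around the matches are shown because they are what these members share in sequence, with the matched letters in capitals. RefSeq gives several starts for some genes, and these can lie inside the gene span given above: the Dnaja1 window is chr4:40722218-40722517 and the Hspd1 window chr1:55087883-55088182. Coordinates of the stretches are chr17:34972233-34972280 and chr17:34959315-34959362 for Hspa1a and Hspa1b, which have the same letters there (minus strand), chr5:149636268-149636389 for Hsph1 (minus strand), chr4:40722324-40722371 for Dnaja1 (plus strand), and chr1:55088039-55088096 for Hspd1 and Hspe1, which share 1 stretch read on the minus and on the plus strand.
Hspa1a and Hspa1b: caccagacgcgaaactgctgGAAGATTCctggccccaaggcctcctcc
Hsph1: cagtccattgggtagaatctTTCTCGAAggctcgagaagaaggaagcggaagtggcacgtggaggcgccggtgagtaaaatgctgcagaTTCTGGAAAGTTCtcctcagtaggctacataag
Dnaja1: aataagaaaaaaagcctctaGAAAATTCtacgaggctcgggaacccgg
Hspd1: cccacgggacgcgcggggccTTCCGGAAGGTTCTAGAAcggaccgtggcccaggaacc
Hspe1: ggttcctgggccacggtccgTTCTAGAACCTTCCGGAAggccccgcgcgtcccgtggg
Runs of at least 3 repeats were found in Hsph1, Hspd1 and Hspe1, and the run in the stretch shared by Hspd1 and Hspe1 was longer than that of Hsph1. A match is a description of letters in the window and not a binding site.

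The 6 libraries held 13252572 to 22057084 UMIs before filtering and 7849614 to 16949412 after it, when 17514 nuclei remained, 7660 from CO and 9854 from KO tumors. Nuclei were classed by counts of marker UMIs: 9927 were mesenchymal-like (implanted TC1 cells or host stroma), 4410 macrophage-like and 342 T/NK-like, 2015 were mixed and 645 carried too few marker UMIs to be classed, and 1409 lay near the cut between a class and mixed. KO replicates 2 and 3 stood apart. Their summed ribosomal protein messengers, which serve here as a measure of cytoplasmic RNA, made up 3531 and 7995 UMIs per 1000000 nuclear-encoded UMIs (CPM) over all nuclei, against 17642, 14902 and 10459 in the CO replicates and 17532 in KO replicate 1. Messengers of genes longer than 200 kb were highest in the same 2 libraries, at 257350 and 217768 CPM, against 146569 to 200569 in the others. Mitochondrially encoded messengers, another measure used below, read 92446, 82073 and 53930 per 1000000 UMIs in CO and 88107, 55222 and 47087 in KO libraries. On that measure KO replicate 2 lay above CO replicate 3. Which samples received additional washing of the nuclei is not given in the sources used here. Of 18726 distinct barcode sequences, 61 occurred in more than 1 library. Slc16a7 itself read 9.10, 12.5 and 22.5 CPM in CO and 17.1, 7.51 and 32.7 CPM in KO libraries. In macrophage-like nuclei it read 99.5, 96.5 and 191 CPM in CO and 121, 144 and 192 CPM in KO libraries, and in mesenchymal-like nuclei 1.16 to 6.69 CPM. Counts per gene do not resolve the deleted exons.

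The level of each chaperone differed widely among libraries within each class. A level below is in CPM, with CO replicates 1, 2 and 3 first and KO replicates 1, 2 and 3 after them. The counting kit tags the 3′ end of each transcript, so a level is not divided by gene length, and levels are compared between samples and not between genes.

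Hsp90ab1, the constitutive HSP90, read 1129, 805 and 521 in CO and 857, 116 and 254 in KO mesenchymal-like nuclei. In macrophage-like nuclei it read 942, 928 and 655 in CO and 1039, 166 and 343 in KO. KO replicate 1 lay among or above the CO libraries and KO replicates 2 and 3 below all of them, in both classes. Hsp90aa1, the inducible HSP90, read 140, 95.9 and 72.5 in CO and 118, 47.3 and 72.4 in KO mesenchymal-like nuclei, and 142, 128 and 124 in CO and 173, 118 and 105 in KO macrophage-like nuclei. The groups overlapped for Hsp90aa1 in both classes.

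Hspa8, the constitutive HSP70, read 1028, 666 and 501 in CO and 644, 104 and 243 in KO mesenchymal-like nuclei. Macrophage-like nuclei held 1077, 976 and 890 in CO and 1008, 188 and 389 in KO. The order of libraries was close to that of Hsp90ab1. The inducible pair was sparse: Hspa1b gave 303 UMIs in 279 nuclei and Hspa1a 38 UMIs in 30 nuclei of the 17514. Hspa1b in mesenchymal-like nuclei read 7.14, 3.16 and 6.17 in CO and 2.82, 2.23 and 2.75 in KO, with 34 to 86 UMIs behind each CO value and 23 to 37 behind each KO value, and every KO library lay below every CO library. Hspa1a stayed at 1.13 CPM or less over all nuclei of each library. These values rest on few UMIs, and free RNA was not separated from RNA of the nuclei.

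Hsph1, the HSP110 gene, read 51.9, 34.7 and 51.4 in CO and 30.2, 21.9 and 29.8 in KO mesenchymal-like nuclei, without overlap of the groups. In macrophage-like nuclei it read 32.5, 27.8 and 47.3 in CO and 29.1, 13.1 and 22.3 in KO, with overlap. Dnaja1, a constitutive HSP40, read 84.7, 72.5 and 64.8 in CO and 55.3, 25.3 and 37.0 in KO mesenchymal-like nuclei. It read 86.3, 76.5 and 93.0 in CO and 53.0, 17.5 and 40.0 in KO macrophage-like nuclei, and the groups overlapped in neither class. Dnajb1, the inducible HSP40, read 32.6, 23.2 and 16.4 in CO and 20.5, 7.26 and 15.9 in KO mesenchymal-like nuclei, with overlap.

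Hspd1, the mitochondrial HSP60, read 207, 155 and 99.8 in CO and 193, 45.0 and 72.1 in KO mesenchymal-like nuclei, and 174, 176 and 120 in CO and 225, 65.5 and 111 in KO macrophage-like nuclei. Hspe1, its lid, read 71.4, 62.9 and 39.0 in CO and 63.4, 13.8 and 25.9 in KO mesenchymal-like nuclei, and 82.3, 81.9 and 69.3 in CO and 96.8, 17.5 and 25.9 in KO macrophage-like nuclei. In mesenchymal-like nuclei both followed the order of libraries seen for Hsp90ab1, and in both classes KO replicate 1 lay among the CO libraries or above them and KO replicate 2 lowest.

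**Figure D1:**
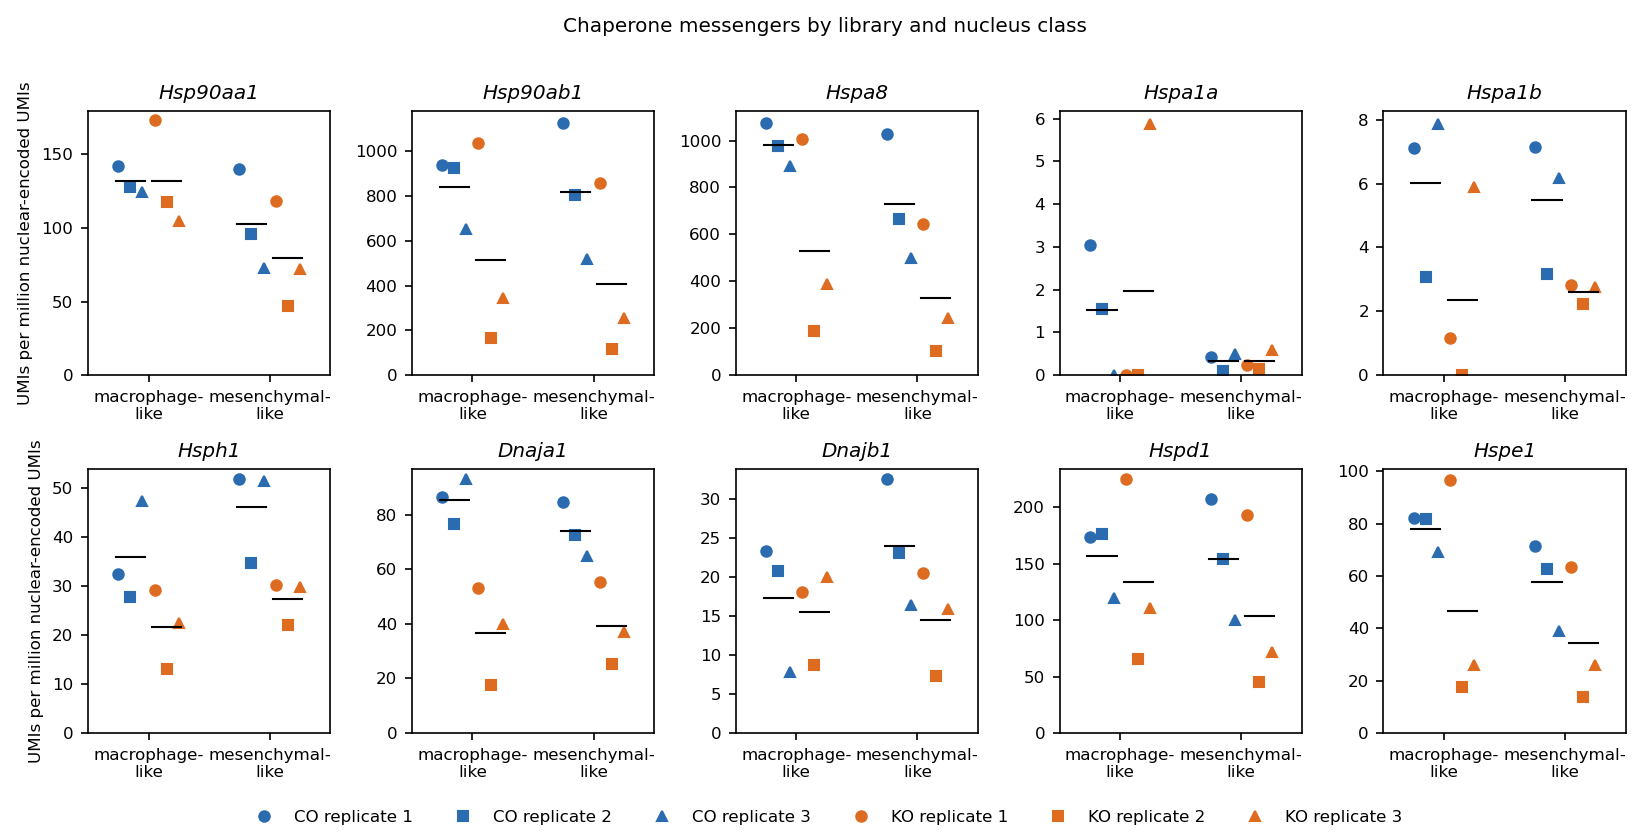
Level of each chaperone messenger (CPM, linear axis from 0) in macrophage-like and mesenchymal-like nuclei; each symbol is 1 library (blue CO, orange KO) and bars are group means. KO replicate 2 is lowest in mesenchymal-like nuclei for 9 of the members, all but Hspa1a, and Hspa1a and Hspa1b lie below 8 throughout.

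The width of these differences was compared with that of other genes. In mesenchymal-like nuclei the highest library stood above the lowest by 9.90-fold for Hspa8 and 9.77-fold for Hsp90ab1, and only 1.70% and 1.78% of 13159 genes were at least as wide. The ratio was 5.17 for Hspe1, 4.60 for Hspd1, 2.97 for Hsp90aa1 and 2.37 for Hsph1. The median gene had a ratio of 1.84, the summed ribosomal protein messengers 5.04, the summed cytosolic abundant messengers (a list that includes Eef1a1, Ppia and Pfn1) 4.78 and the summed immediate-early messengers 2.80. In macrophage-like nuclei the ratio was 6.26 for Hsp90ab1 and 5.73 for Hspa8, but 1.65 for Hsp90aa1, where 75.2% of 9312 genes were at least as wide.

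The comparison of KO with CO hosts asked whether host deletion of MCT2 changed these messengers. Counts were summed over nuclei per library and tested with the quasi-likelihood F-test of edgeR across all genes, and a gene was called at an absolute log2 fold change of at least 0.58 and a Benjamini-Hochberg adjusted p of at most 0.05. None of the 10 members was called over all nuclei (0% of 13670 genes were called), none of 8 tested in macrophage-like nuclei (0% of 9324) and none of 9 tested in mesenchymal-like nuclei (0% of 13172). Unadjusted p-values under 0.05 were found for 655, 415 and 805 genes, among them 3, 1 and 3 members, and DESeq2 called 12, 6 and 25 genes and none of the members. Hspa1a in both classes and Hspa1b in macrophage-like nuclei did not pass the filter on low counts.

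The fold changes were nevertheless mostly negative. Over all nuclei the log2 fold change (KO minus CO) was negative for 10 of 10 members with a median of -0.68, against -0.02 for all genes. It was -1.04 (SE 0.58) for Hspa8, -0.91 (SE 0.64) for Hsp90ab1, -0.86 (SE 0.25) for Dnaja1, -0.68 (SE 0.22) for Hsph1 and -0.28 (SE 0.32) for Hsp90aa1, with edgeR adjusted p-values of 0.672 to 0.842 across the 10 members. Leaving out KO replicate 2 brought these to -0.62 for Hspa8, -0.48 for Hsp90ab1 and -0.026 for Hsp90aa1, and leaving out KO replicate 1 to -1.82, -1.90 and -0.57. Ribosomal protein messengers had a median of -0.51 with 81 of 81 negative, nuclear-encoded oxidative phosphorylation messengers -0.48, immediate-early messengers -0.60, the TRiC subunits (the cytosolic chaperonin) -0.46 and the cofactors of HSP90 and HSP70 -0.31, whereas genes longer than 200 kb had a median of +0.33. The chaperones thus lay below the median of all genes, as did the ribosomal protein, oxidative phosphorylation, immediate-early, TRiC and cofactor messengers. The parts of cytoplasmic RNA and of a stress response in their fold change were not tested.

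In mesenchymal-like nuclei 9 of 9 tested members were negative, with a median of -0.70 against -0.56 for ribosomal protein messengers. Hspa1b changed by -0.99 (SE 0.37), Hsph1 by -0.67 (SE 0.21) and Dnaja1 by -0.85 (SE 0.25), each with an edgeR adjusted p of 0.603. In macrophage-like nuclei 7 of 8 were negative, with a median of -0.54, led by Dnaja1 at -1.03 (SE 0.30, edgeR adjusted p = 0.918), while Hsp90aa1 stood at 0.04 (SE 0.24). KO libraries lay below CO libraries without overlap for 3 of 9 members in mesenchymal-like nuclei (Hspa1b, Hsph1 and Dnaja1; 7.24% of 13159 genes did so) and for 1 of 8 in macrophage-like nuclei (Dnaja1; 5.18% of 9312 genes).

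In the 2 classes, the absence of calls rested on KO replicate 1, the KO library with a ribosomal share as high as in CO libraries. Over all nuclei, no gene was called without it either, with log2 fold changes of -1.82 for Hspa8 (edgeR adjusted p = 0.0707) and -1.90 for Hsp90ab1 (edgeR adjusted p = 0.0685). Without it, edgeR called 4 of 8 members lower in macrophage-like nuclei, Hsp90ab1 (log2 fold change -1.60), Hspa8 (-1.65), Dnaja1 (-1.27) and Hspe1 (-1.68), while 8.56% of 9429 genes were called lower. In mesenchymal-like nuclei 5 of 9 members were called lower, Hsp90ab1 (-2.04), Hspa8 (-1.97), Dnaja1 (-1.13), Hspd1 (-1.28) and Hspe1 (-1.44), while 10.5% of 13316 genes were called lower. Without KO replicate 2 the change was -0.71 for Hspa8 and -0.55 for Hsp90ab1 in mesenchymal-like nuclei, and without KO replicate 3 it was -0.94 and -0.73, with no member called in either case.

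Each member was then divided by the summed ribosomal protein UMIs of the same nuclei, a measure chosen after the levels had been seen. Hspa8 amounted to 5.96%, 4.79% and 5.42% of ribosomal protein UMIs in CO and 3.98%, 3.04% and 3.68% in KO mesenchymal-like nuclei. In macrophage-like nuclei it amounted to 5.46%, 4.97% and 6.29% in CO and 4.11%, 3.87% and 3.80% in KO. The groups did not overlap in either class, and KO over CO was 0.661 and 0.705. KO replicate 1, whose Hspa8 level was within the CO range, lay below all CO libraries on this measure.

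Hsp90ab1 behaved alike, at 6.55%, 5.80% and 5.63% in CO and 5.31%, 3.38% and 3.84% in KO mesenchymal-like nuclei (KO over CO 0.696), and at 4.78%, 4.73% and 4.63% in CO and 4.24%, 3.42% and 3.35% in KO macrophage-like nuclei (0.779). Hspe1 differed less, at 0.414%, 0.453% and 0.421% in CO and 0.392%, 0.404% and 0.392% in KO mesenchymal-like nuclei (0.922). Hsp90aa1 showed no such separation, at 0.814%, 0.690% and 0.785% in CO and 0.733%, 1.38% and 1.10% in KO mesenchymal-like nuclei. In all, KO lay below CO without overlap for 3 of 9 members in mesenchymal-like nuclei (Hsp90ab1, Hspa8 and Hspe1), where 0.95% of 13159 genes did so, and for the same 3 of 8 members in macrophage-like nuclei, where 1.37% of 9312 genes did so. Hspd1 lay above without overlap in macrophage-like nuclei, at 0.881%, 0.897% and 0.846% in CO and 0.918%, 1.35% and 1.08% in KO. The exact two-sided permutation test over 3 against 3 libraries gave p = 0.1 for Hspa8 in each class, which is the smallest p that this design allows.

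Among Hsp90ab1, Hspa8 and Hspe1, the result depended on the divisor for all but Hspa8. Hspa8 was lower in KO without overlap when divided by ribosomal protein, oxidative phosphorylation, cytosolic abundant or TRiC messengers, in all nuclei and in both classes. Hsp90ab1 overlapped when divided by oxidative phosphorylation or TRiC messengers, and Hspe1 overlapped with each of the other 3 divisors. Dnaja1 overlapped when divided by ribosomal protein messengers. Divided by oxidative phosphorylation or TRiC messengers, Dnaja1 was lower in KO without overlap, in all nuclei and in both classes. It had 4 UMIs in macrophage-like nuclei of KO replicate 2. Results of the remaining members with these divisors are not given here. Of the windows near the 3′ end of Hspa8, 81.8% were shared with copies, as given above, so reads lost to copies could enter its level in every library.

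**Figure D2:**
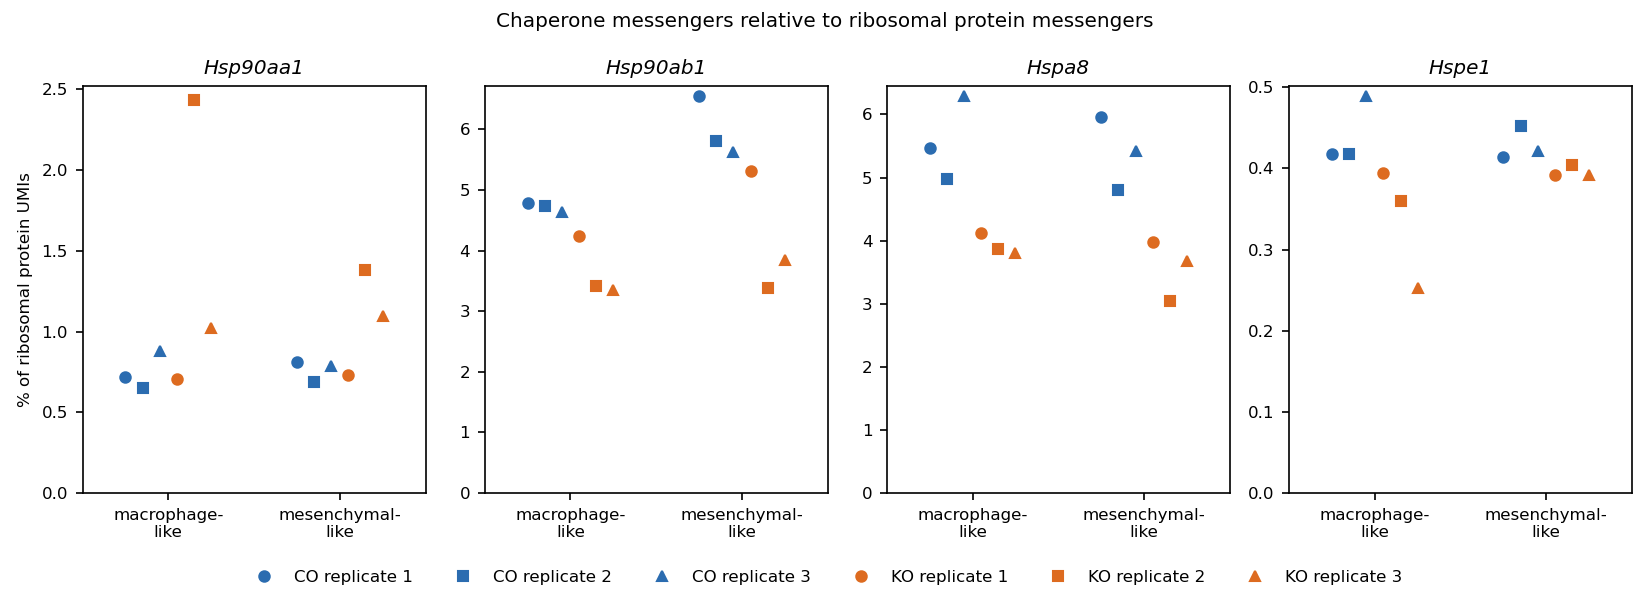
Hsp90aa1, Hsp90ab1, Hspa8 and Hspe1 UMIs as a percentage of the ribosomal protein UMIs of the same nuclei (axis from 0), per library and class. KO libraries lie below CO libraries for Hsp90ab1, Hspa8 and Hspe1 in both classes, while Hsp90aa1 in KO replicate 2 lies above all CO libraries.

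Levels were next compared between classes within libraries, to ask whether the chaperones followed cell type. Summed over the 10 members, mesenchymal-like nuclei held 2753, 1918 and 1372 CPM in CO and 1985, 382 and 754 in KO libraries. Macrophage-like nuclei held 2569, 2421 and 2015 in CO and 2643, 594 and 1068 in KO. T/NK-like nuclei held 3298, 3459 and 2752 in CO and 2933, 607 and 1301 in KO, and the nuclei with too few markers held 7171, 5008 and 4212 in CO and 5080, 1282 and 2329 in KO. Macrophage-like nuclei lay above mesenchymal-like nuclei in 5 of 6 libraries, T/NK-like nuclei above macrophage-like nuclei in 6 of 6, and the unclassed nuclei, with a median of 653 UMIs, above these 3 classes in 6 of 6. In KO replicate 2 the T/NK-like and macrophage-like values were close, at 607 and 594, and the T/NK-like value rests on 17 UMIs. The unclassed nuclei also held the most ribosomal protein messengers, 9432 to 42500 CPM. Messengers of a red cell list (globin genes and Alas2) in unclassed nuclei read 11164, 654 and 117 in CO and 109, 82.7 and 94.4 in KO libraries. Nuclei removed for a mitochondrial share of 20% or more held 1484 to 5569 CPM of the chaperones.

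The median difference of macrophage-like from mesenchymal-like nuclei was 0.41 for the members and 0.00 for all genes, and edgeR with library as a block called 4 of 10 members higher in macrophage-like nuclei, while 26.5% of 12795 genes were called higher. Hspa8 was higher by 0.78 log2 units (SE 0.12, adjusted p = 1.34e-05) and Hsp90aa1 by 0.72 (SE 0.12, adjusted p = 3.53e-05), each in 6 of 6 libraries. Hspe1 was higher by 0.62 (SE 0.12) in 5 of 6 libraries, and fell short of the fold threshold without CO replicate 3 (0.53) or KO replicate 1 (0.57), with DESeq2 (0.54), RLE scaling (0.55), no filter on low counts (0.52), doublets kept (0.578) or the stricter class rule (0.51). Hspa1a was called at 2.59 (SE 0.75) from 10 UMIs in macrophage-like and 19 in mesenchymal-like nuclei, with 0 UMIs in macrophage-like nuclei of 3 libraries. Hsp90ab1 (0.42), Hspd1 (0.41), Dnaja1 (0.29), Hspa1b (0.22), Dnajb1 (-0.03) and Hsph1 (-0.13) were not called.

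Ribosomal protein messengers moved with this comparison, with a median of 0.68 and 52 of 81 called higher, as did oxidative phosphorylation messengers, with a median of 0.64 and 42 of 75. The mitochondrially encoded messengers were lower in macrophage-like nuclei, with a median of -2.77 and 13 of 13 called lower. The classes also differed in depth, with a median of 1134.5 UMIs per macrophage-like and 4925 per mesenchymal-like nucleus. Among nuclei with 1000 to under 4000 UMIs, none of 8 members was called higher while 24.2% of 10425 genes were: Hspa8 differed by 0.18, Hsp90aa1 by 0.25, Hspe1 by 0.32, Hsp90ab1 by 0.02 and Hspd1 by 0.0016. The cofactor list split, with 4 of 27 called higher and 4 lower, and 0 of 8 TRiC subunits were called.

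Depth was examined directly, since nuclei with few UMIs might carry a larger share of cytoplasmic RNA. Over all libraries, the summed chaperones in macrophage-like nuclei read 3155 CPM in 1639 nuclei of 500 to under 1000 UMIs, 2250 in 2262 nuclei of 1000 to under 2000, 1228 in 472 nuclei of 2000 to under 4000, 968 in 32 nuclei of 4000 to under 8000 and 800 in 5 nuclei of 8000 or more. Ribosomal protein messengers fell along the same bins from 27093 to 5474 CPM and genes longer than 200 kb rose from 114416 to 173398. Red cell messengers read 244, 131, 67.2, 19.2 and 82.0 CPM, the last from 4 UMIs. Free RNA and RNA attached to nuclei were not told apart. In mesenchymal-like nuclei the summed chaperones read 3021, 2230, 1949, 1812 and 1347 CPM along these bins and ribosomal protein messengers 24285, 18518, 15696, 13180 and 9512, while Dnaja1 read 72.0, 58.1, 59.4, 59.4 and 53.4. These pooled bins draw unequally on the libraries, so tertiles of nuclei by depth within each library were tested.

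In macrophage-like nuclei, Hspa8 read 1581, 1391, 1496, 1395, 397 and 618 CPM in the shallow tertile of CO replicates 1 to 3 and KO replicates 1 to 3, and 788, 751, 631, 817, 143 and 311 in the deep tertile. The shallow tertile was higher in 6 of 6 libraries, by 0.77 to 1.47 log2 units. Hspd1 read 190, 253, 154, 389, 122 and 193 in the shallow tertile and 151, 140, 89.3, 166, 45.3 and 85.8 in the deep tertile, also higher in 6 of 6. Hsp90aa1 read 130, 197, 281, 220, 305 and 186 in the shallow tertile and 135, 98.1, 89.3, 158, 68.0 and 79.0 in the deep tertile, higher in 5 of 6, all but CO replicate 1.

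By edgeR, 5 of 8 tested members were called higher in the shallow tertile, against 12.4% of 7715 genes. They were Hspa8 (0.99, SE 0.085), Hspd1 (0.96, SE 0.14), Hsp90aa1 (0.84, SE 0.15), Hspe1 (0.77, SE 0.21) and Hsp90ab1 (0.71, SE 0.088), with adjusted p-values from 1.43e-28 for Hspa8 to 0.0019 for Hspe1. Dnajb1 (0.94), Hsph1 (0.70) and Dnaja1 (0.48) were not called. Without KO replicate 2, Hsph1 (0.79) and Dnajb1 (1.05) were called too, and without CO replicate 2 Hsph1 (0.96). The median of the 8 members was 0.81, against -0.06 for all genes, 0.88 for ribosomal protein messengers with 62 of 73 called higher, 0.92 for cytosolic abundant messengers with 20 of 20, 0.82 for oxidative phosphorylation messengers with 43 of 71, and -0.25 for genes longer than 200 kb. Within nuclei below the median mitochondrial share, the same 5 members were called of 6 tested. The share of all genes called higher there is not given here, so that count is not read further.

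Other chaperone lists were counted in that comparison. Of the TRiC subunits, 5 of 8 were called higher with a median of 0.64, among them Cct6a (0.80), while Tcp1 (0.56) and Cct3 (0.52) fell short of the fold threshold. Of the endoplasmic reticulum stress list, 6 of 19 were called higher with a median of 0.51, among them Hspa5 (0.77), the chaperone of that compartment, and Pdia3 (0.64), while Hsp90b1 (0.56) was not. Of the HSP90 and HSP70 cofactors, 2 of 19 were called higher with a median of 0.22, and Dnajb6 (0.22), Hspa4 (0.15) and Dnajc7 (-0.06) were not. The mitochondrial chaperones Hspa9 (0.44), Clpx (0.09) and Dnaja3 (-0.18) were not called. Tcp1, Cct3 and Hsp90b1 crossed the threshold with RLE scaling, at 0.62, 0.59 and 0.62, and with DESeq2, and Dnajc7 changed sign with RLE scaling (0.0064).

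In mesenchymal-like nuclei none of 9 tested members was called between the shallow and the deep tertile, and 2.88% of 12393 genes were called. Hspa8 read 977, 707, 901, 840, 207 and 1059 in the shallow tertile and 1077, 646, 443, 565, 88.7 and 179 in the deep tertile, in the same order of libraries. The difference ran from -0.14 log2 units in CO replicate 1 to 2.56 in KO replicate 3. The fitted differences were 0.80 (SE 0.28) for Hspa8, 0.67 for Hsp90aa1, 0.60 for Hspd1 and 0.55 for Hsp90ab1 with adjusted p-values of 0.134 to 0.202, and 0.01 for Dnaja1, while ribosomal protein messengers had a median of 0.69 with 6 of 81 called higher. Without KO replicate 3 the differences were 0.47 for Hspa8, 0.33 for Hsp90aa1, 0.32 for Hspd1 and 0.29 for Hsp90ab1. With nuclei limited to at least 500 genes and under 5% mitochondrial UMIs, 5 of 9 members were called higher (Hspa8 1.36, Hspe1 1.13, Hspd1 1.11, Hsp90aa1 1.01 and Hsp90ab1 0.97), and 5.88% of 9839 genes were called higher.

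**Figure D3:**
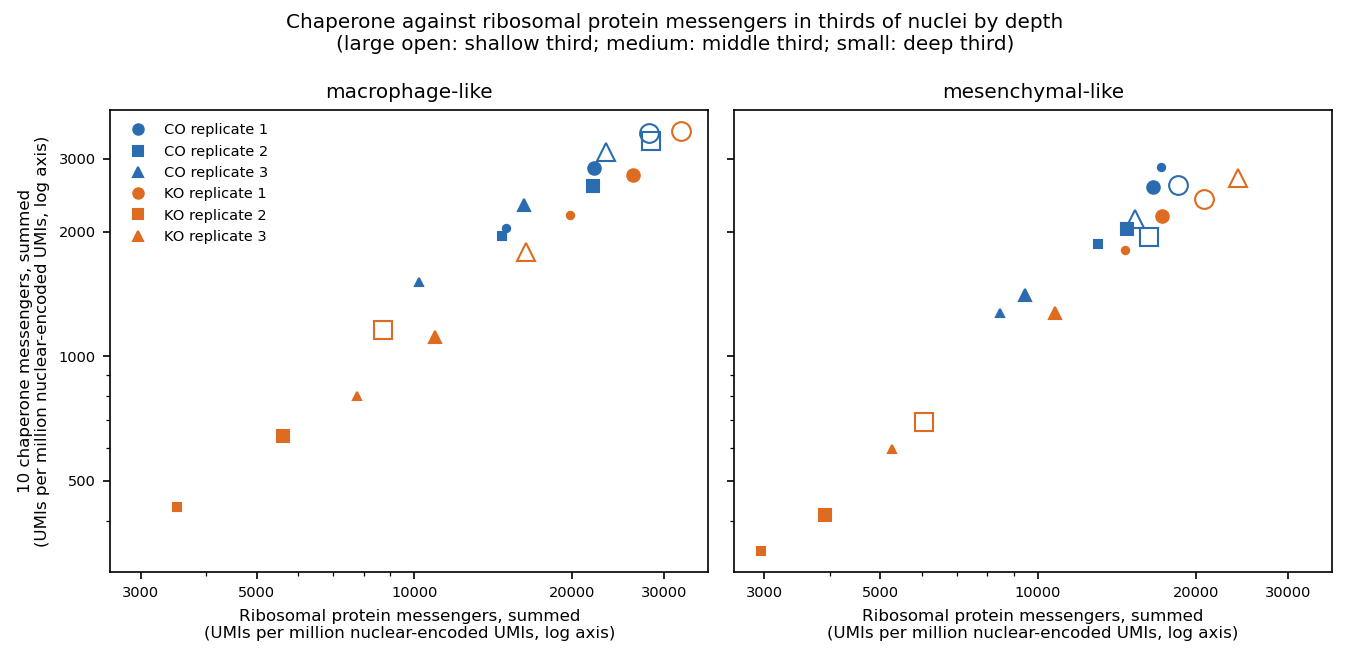
Summed level of the 10 chaperone messengers against that of the ribosomal protein messengers (both in CPM, log axes) in tertiles of nuclei by depth, 1 point per library and tertile, for each class. The deep tertile of KO replicate 2 is the lowest point on both axes in both classes, and the shallow tertile of each library lies above its deep tertile on both axes in macrophage-like nuclei.

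The mitochondrial share of a nucleus was used as another measure of attached cytoplasm. In macrophage-like nuclei pooled over libraries, the summed chaperones rose from 1952 CPM in 2932 nuclei with under 1% mitochondrial UMIs to 3573 CPM in 41 nuclei with 10% to 20%, and ribosomal protein messengers from 16279 to 28340 CPM. Mesenchymal-like nuclei held 1082, 943, 891, 1598 and 2067 CPM along the same 5 bins, lowest at 2.5% to 5%. Libraries differ in mitochondrial share, so tertiles within each library were tested here too, with the mitochondrially encoded genes left out of the table.

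No member was called in either class: 0 of 7 in macrophage-like nuclei, where 4.39% of 7760 genes were called, and 0 of 9 in mesenchymal-like nuclei, where 2.92% of 12435 genes were called. In macrophage-like nuclei, 3 members passed the adjusted p with a fold under the threshold, all higher in the tertile with the higher share: Hspd1 by 0.54 (SE 0.14), Hspa8 by 0.48 (SE 0.088) and Hsp90ab1 by 0.42 (SE 0.090). Hspa8 read 1285, 1168, 1039, 1183, 254 and 535 in the high tertile and 934, 876, 875, 897, 158 and 316 in the low tertile, higher in 6 of 6 libraries. All 7 differences were positive, with a median of 0.45, the same as for the ribosomal protein messengers (0.45, 4 of 75 called). In mesenchymal-like nuclei the median was 0.09 for the members and 0.22 for the ribosomal protein messengers, and both negative members were Hsp90aa1 at -0.25 and Dnajb1 at -0.39 (SE 0.14, edgeR adjusted p = 0.093), lower in the high tertile in 5 of 6 libraries.

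The immediate-early messengers (Fos, Jun, Egr1 and others), which rise shortly after a stimulus or tissue handling, were used as a measure of a stress response that does not include the chaperones. Each nucleus was thinned to 500 UMIs, and nuclei with at least 1 immediate-early UMI were compared with nuclei with none, using their unthinned counts without the immediate-early genes. In mesenchymal-like nuclei, Dnajb1 read 40.7, 26.0, 17.8, 24.8, 10.0 and 25.5 CPM in positive nuclei and 23.4, 19.3, 15.5, 16.6, 6.33 and 11.2 CPM in negative nuclei of CO replicates 1 to 3 and KO replicates 1 to 3. Positive nuclei were higher in 6 of 6 libraries, by 0.21 to 1.18 log2 units. Dnajb1 was the 1 member of 9 called higher by edgeR (0.64, SE 0.097, adjusted p = 4.01e-05; 725 and 521 UMIs), where 0.489% of 12893 genes were called higher.

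The other members moved little between these nuclei. Hspa8 was higher by 0.25 (SE 0.039, 6 of 6 libraries), Hsp90aa1 by 0.26, Hsph1 by 0.21, Hsp90ab1 by 0.19 and Hspd1 by 0.13, each past the adjusted p and under the fold threshold. Ribosomal protein messengers had a median difference of 0.18 with 78 of 81 positive and none called, and genes longer than 200 kb a median of -0.13. Hspa1b, the inducible HSP70 gene tested, differed by 0.13 (SE 0.21).

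The call of Dnajb1 depended on the test and on the nuclei. DESeq2 called none of the members, with 0.0388% of 12893 genes called higher. Among nuclei with 1000 to under 4000 UMIs Dnajb1 differed by 0.37 (edgeR adjusted p = 0.805), none of 8 members was called and 0.0213% of 9409 genes were called higher. Without KO replicate 3 the difference was 0.575, just under the fold threshold. In macrophage-like nuclei none of 8 members was called and 0.124% of 8885 genes were called, while Dnajb1 was higher in 6 of 6 libraries at 0.43 (SE 0.31, edgeR adjusted p = 0.81) from 51 UMIs in positive and 54 in negative nuclei, with 1 UMI on either side in KO replicate 2. In CO replicate 3 Dnajb1 had 2 UMIs in positive and 3 in negative macrophage-like nuclei. The difference between the classes was not tested.

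**Figure D4:**
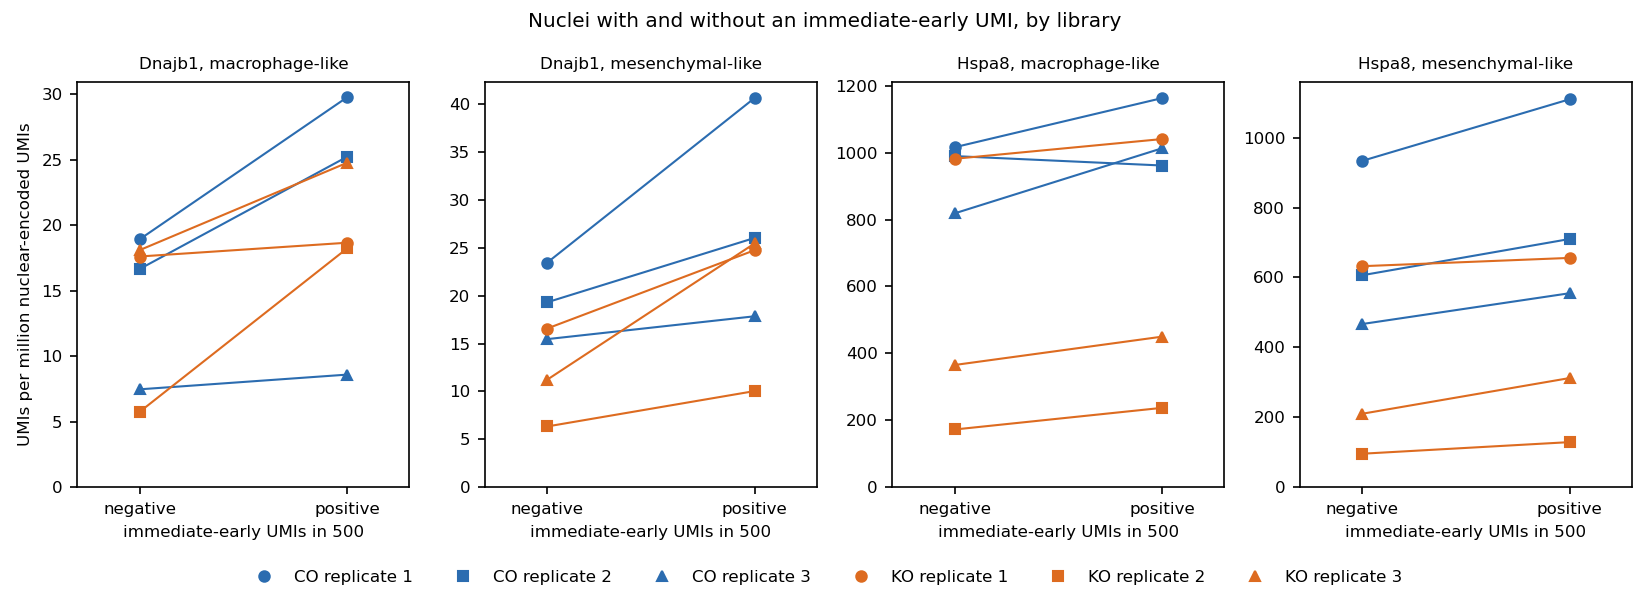
Level of Dnajb1 and Hspa8 (CPM, axes from 0) in nuclei without and with an immediate-early UMI after thinning to 500 UMIs, with a line for each library, in both classes. Lines for Dnajb1 rise in 6 of 6 libraries in both classes and those for Hspa8 in 6 of 6 in mesenchymal-like nuclei. In macrophage-like nuclei the Dnajb1 lines of CO replicate 3 and KO replicate 2 rest on at most 3 UMIs at each end.

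**Figure D5:**
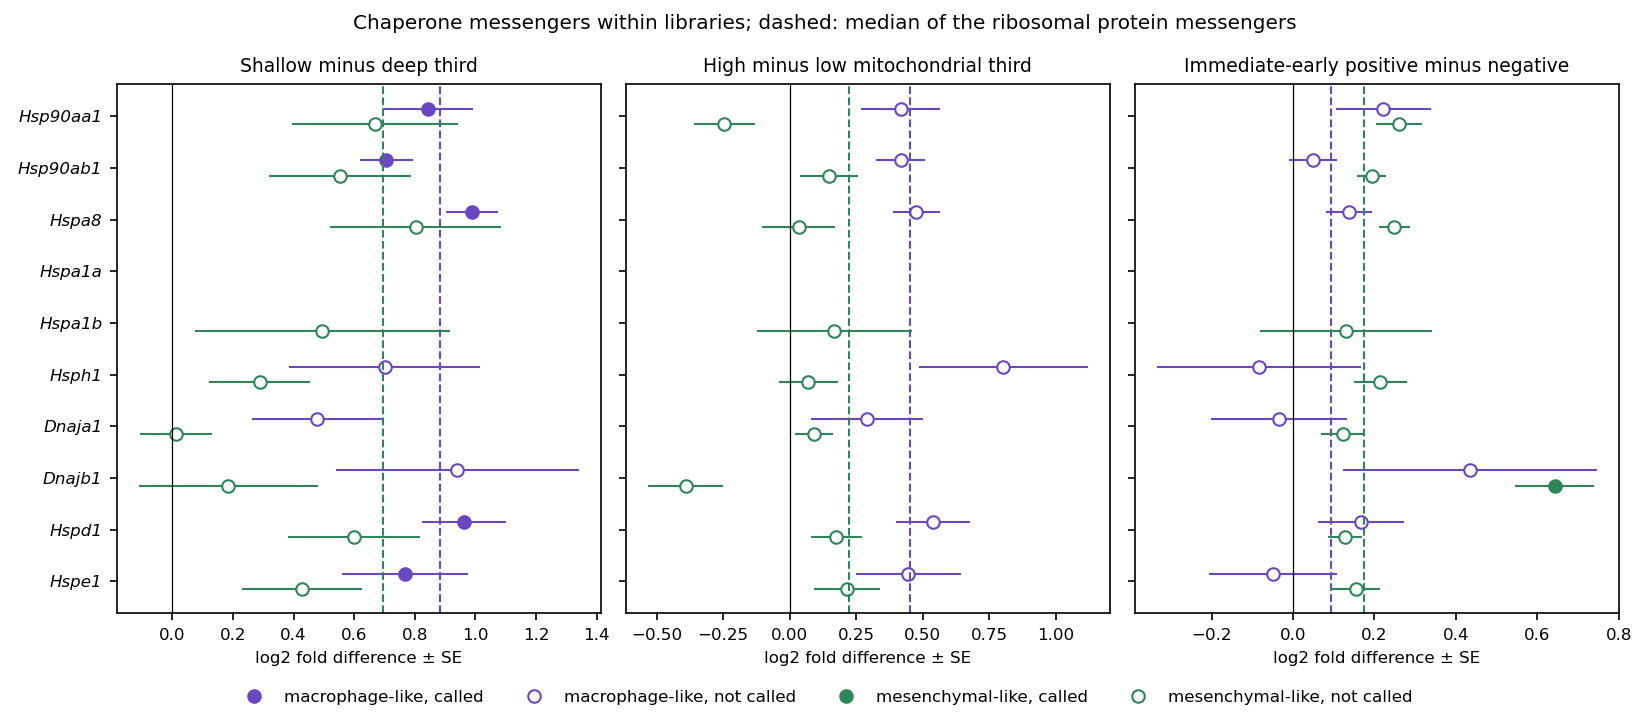
Fitted log2 difference of each member with its SE in 3 comparisons within libraries (by depth, by mitochondrial share and by immediate-early UMIs), for macrophage-like and mesenchymal-like nuclei; filled points passed both thresholds and dashed lines are the medians of the ribosomal protein messengers. By depth, 5 members are called in macrophage-like nuclei, by mitochondrial share none, and by immediate-early UMIs Dnajb1 in mesenchymal-like nuclei.

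Across 36 sums (6 libraries, 2 classes and 3 depth tertiles), Pearson's r of log2 levels with the summed ribosomal protein messengers was 0.97 for Hspa8, 0.96 for Hsp90ab1 and Hspd1, 0.93 for Hspe1, 0.78 for Dnaja1, 0.73 for Hsp90aa1, 0.55 for Dnajb1, 0.42 for Hspa1b, 0.38 for Hsph1 and 0.20 for Hspa1a. With the summed mitochondrially encoded messengers it was between -0.30 and 0.17 over the same sums of both classes. Those messengers were lower in macrophage-like nuclei, as given above, so this r mixes the difference between classes with that among libraries. Values of r within each class are not given here. The constitutive HSP90 and HSP70 genes and both mitochondrial chaperonin genes were thus the members closest to the ribosomal protein messengers, and Hsph1 and the pair Hspa1a and Hspa1b the farthest. The sums share libraries and differ in depth, the sparse members have low values of r from counting alone, and no p is given.

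Among 7377 genes, those most like Hsp90ab1 included Ubb (a ubiquitin gene, r = 0.98), Rps3, Rpl6 and Emp3, against a median r of 0.09 over all genes. Those most like Hspa8 were Vim (r = 0.99), Ifitm3, Prdx1, Gm11808 and Ppia, and those most like Hspd1 were Timp1 (r = 0.98), Bsg, Ptma, Npc2 and Eef1a1. For Hspa1b the closest were Brd2 (r = 0.67), Ndufb6, Bag6, Ing1 and Procr.

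The highest count in a single nucleus was found at various depths. For Hsp90ab1 it was 151 UMIs, in a mesenchymal-like nucleus of CO replicate 1 with 48437 UMIs. Dnajb1 reached 20 UMIs in 1 mixed nucleus of CO replicate 2 with 17227 UMIs. Hspa1b reached 5 UMIs in an unclassed nucleus of CO replicate 1 with 1109 UMIs, and Hspa1a 4 UMIs in a macrophage-like nucleus of KO replicate 3 with 928 UMIs.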

How the data were processed

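Single-nucleus RNA was measured in 6 tumor libraries, 3 MCT2 CO and 3 MCT2 KO, with groups taken from the sample labels. The deposited files hold raw UMI counts per gene and barcode, whole numbers made by the authors with Cell Ranger on GRCm38. The submitters' notes name version 3.0.2 and the file header 3.1.0, and the counting of reads in introns is not given in the sources used here. The study's methods mention removal of ambient RNA, of which the whole-number counts show no trace.

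Nuclei with 100 to 7500 genes and under 20% mitochondrial UMIs were kept (851 barcodes removed). The highest Scrublet scores were removed as doublets at 0.8% per 1000 barcodes (500 removed; the automatic threshold marked 13). A nucleus was assigned to the class with the most marker UMIs when it had at least 3 marker UMIs and 60% of them belonged to that class; otherwise it was mixed or unassigned. The class rule was set after marker sums were seen, and the 10 members and all gene lists were chosen with earlier results of these data known.

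Depth and mitochondrial tertiles divided the nuclei of a library and class into 3 equal groups by rank. Counts were summed per library (and class, tertile or immediate-early status) and tested with edgeR 4.0.16 (TMM scaling, filter on low counts, quasi-likelihood F-test), with the library as a block in comparisons within libraries. DESeq2 1.42.0 was an alternative. SE is the absolute log2 fold change over the square root of F. The tests were checked on simulated data. Scripts ran in R 4.3.3 and Python 3.11.15 with scanpy 1.11.5. Named genes were all 10 members, Slc16a7, the 3 genes of each chaperone list with the highest mean count in the depth comparison of macrophage-like nuclei, and the 5 genes with the highest r, of which 1 is not reported here. Libraries of 1 group differed from each other beyond counting error (chi-square per degree of freedom of 8.58 or more), and p-values measure only the spread between these libraries. Gene coordinates are from GENCODE on GRCm38. Summed counts per library ran from 7849614 to 16949412 UMIs after filtering. Of the macrophage-like and mesenchymal-like sums, counting precision is lowest for macrophage-like nuclei of KO replicate 2 (133 nuclei, 231694 UMIs), and lower still in parts of them. T/NK-like and unclassed nuclei of that library, which were not tested, held 17 and 31 UMIs of the members.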

Additional observations from a re-analysis of the deposited data

Results flagged for a closer look

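In each comparison within libraries, the 6 differences of a member were examined for 1 library far from the other 5 by Dixon's test at the 95% level, which flags about 1 in 20 sets by chance. Values are log2 differences of that library, and causes were not tested. Between the shallow and the deep tertile of mesenchymal-like nuclei, KO replicate 3 stood apart for Dnajb1 (2.31) and for Dnaja1 (0.87). Between the tertiles by mitochondrial share in mesenchymal-like nuclei, KO replicate 3 stood apart for Hsph1 (-0.71) and KO replicate 2 for Dnaja1 (0.32). Between immediate-early positive and negative nuclei, KO replicate 2 stood apart for Hsp90ab1 (0.89) and Dnajb1 (1.67) in macrophage-like nuclei, and KO replicate 3 for Dnaja1 (0.35) in mesenchymal-like nuclei. The macrophage-like nuclei of KO replicate 2 number 133, and the value for Dnajb1 there rests on 1 UMI in positive and 1 UMI in negative nuclei. Each of the flagged differences belongs to a KO library, and none was tested as a difference between KO and CO.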

How the results depend on the processing

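The alternatives were DESeq2, RLE scaling, no filter on low counts, the replicate block, leaving out each library, stricter nuclei (at least 500 genes, under 5% mitochondrial UMIs), doublets kept, a stricter class rule (80% of markers), nuclei with 1000 to under 4000 UMIs and nuclei below the median mitochondrial share of their library and class. The last 2 were partly added after seeing the data, as were the divisors of the members. The cause of each change below was not tested.

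Genes called between KO and CO went from 0 to 12 over all nuclei, 6 in macrophage-like and 25 in mesenchymal-like nuclei with DESeq2, and to 25 in macrophage-like nuclei with no filter. Between mitochondrial tertiles of macrophage-like nuclei 341 genes became 136 with DESeq2, 130 with stricter nuclei, 178 with the stricter class rule and 119 at 1000 to under 4000 UMIs. Those of mesenchymal-like nuclei went from 363 to 236, 148 and 239 under the first 3 of these. Between depth tertiles 1266 genes in macrophage-like nuclei became 837 with the stricter class rule and 684 at the lower mitochondrial share, and 357 in mesenchymal-like nuclei became 590 with DESeq2, 882 with stricter nuclei and 187 at the lower mitochondrial share. By immediate-early status 11 genes in macrophage-like nuclei became 1 with DESeq2, 7 at 1000 to under 4000 UMIs and 2 at the lower mitochondrial share, and 93 in mesenchymal-like nuclei became 5 with DESeq2, 54 with the stricter class rule and 8 at 1000 to under 4000 UMIs.

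Members called between classes went from 4 to 2 with stricter nuclei, 1 with the stricter class rule and 0 at 1000 to under 4000 UMIs. Between depth tertiles of mesenchymal-like nuclei they went from 0 to 5 with stricter nuclei, and by immediate-early status from 1 to 0 with DESeq2 and at 1000 to under 4000 UMIs.

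These log2 differences changed sign. With the stricter class rule they were 0.030 for Hspd1 (KO minus CO, macrophage-like), -0.20 for Hspa1b (between classes) and -0.015 for Hsp90ab1 (immediate-early, macrophage-like). With stricter nuclei they were 0.015 for Dnaja1 and 0.049 for Hspe1 (immediate-early, macrophage-like), and -0.16 for Hsp90ab1, -0.37 for Hspa8, -0.46 for Hsph1 and -0.15 for Hspd1 (mitochondrial tertiles, mesenchymal-like). At 1000 to under 4000 UMIs they were 0.29 for Hsp90aa1 (mitochondrial tertiles, mesenchymal-like) and, by immediate-early status, 0.016 and -0.15 for Hspe1 in macrophage-like and mesenchymal-like nuclei. DESeq2 gave 0.012 for Hspe1 (immediate-early, macrophage-like). Between depth tertiles Dnajc7 was at 0.0064 with RLE scaling and 0.061 at the lower mitochondrial share in macrophage-like nuclei, and Dnaja1 at -0.023 with no filter and -0.052 at the lower mitochondrial share in mesenchymal-like nuclei.

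Leaving out 1 library, KO minus CO called 0 to 1434 genes and 0 to 4 members in macrophage-like and 0 to 2013 genes and 0 to 5 members in mesenchymal-like nuclei, the highest without KO replicate 1. Hspa1a then ran from -1.77 to 0.022 over all nuclei, and Dnajb1 from -0.34 to 0.17, Hsp90aa1 from -0.23 to 0.18 and Hspd1 from -0.68 to 0.10 in macrophage-like nuclei. Between classes Dnajb1 ran from -0.20 to 0.076 and Hspa1b from -0.052 to 0.45. Between mitochondrial tertiles 157 to 311 genes and 0 to 1 members were called in macrophage-like nuclei and 196 to 349 genes in mesenchymal-like nuclei, where Hspa8 ran from -0.062 to 0.20 and Hsph1 from -0.0021 to 0.18. Between depth tertiles Clpx ran from -0.0013 to 0.28 and Dnajc7 from -0.090 to 0.014 in macrophage-like nuclei, and in mesenchymal-like nuclei Dnaja1 from -0.070 to 0.055, Dnajb1 from -0.15 to 0.38 and the genes called from 127 to 520. By immediate-early status Dnaja1 ran from -0.20 to 0.035, Hspe1 from -0.16 to 0.16, Hsph1 from -0.32 to 0.26 and the genes called from 4 to 11 in macrophage-like nuclei, and the members called from 0 to 1 in mesenchymal-like nuclei, with 0 without KO replicate 3.

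With the replicate number as a block, 0 members and 0 genes were called between KO and CO over all nuclei and in both classes. Deviations of same-numbered libraries correlated at 0.53, -0.30 and 0.40, so that the numbers were not taken to pair the libraries. Depth limits Hspa1a, Hspa1b and Dnajb1 most.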

Other observations

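In nuclei of skeletal muscle-like class, of which there were 53 over all libraries, Hsp90ab1 had 58 UMIs, Hspa8 60, Dnajb1 8 and Hspe1 6 of 96157 nuclear-encoded UMIs. T/NK-like nuclei, of which there were 342, held 1 UMI of Dnajb1, 0 of Hspa1a and 2 of Hspa1b among 371023 nuclear-encoded UMIs, against 322 of Hsp90ab1 and 399 of Hspa8. No test was run on either class.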
